A study of Mus musculus with 12 samples.

Results

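The 8 genes described here make polyamines, degrade them or control the enzyme that starts their synthesis. They were chosen by symbol (Odc1, Oaz1, Oaz2, Azin1, Amd1, Sat1, Srm and Sms), and all 8 were found once each among the 17419 genes of the count table. The cells were NIH-3T3, an immortalised mouse fibroblast line of WT genotype. They received 800 µM 4-thiouridine (4sU) for 15, 30, 60, 90 or 120 min, or no 4sU (no4sU), and each of the 6 groups had 2 libraries, replicates A and B. 4sU is a uridine analogue that enters RNA made while it is present. In SLAM-seq, iodoacetamide treatment makes incorporated 4sU read as C. From those conversions the authors estimated the new-to-total ratio (NTR), which is the part of a gene's transcripts synthesised since 4sU was added. The series title asks how labelling duration biases quantification, so each duration was compared with no4sU and 120 min with 15 min, and the measures were followed over labelling time.

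Polyamines are small positively charged molecules that bind nucleic acids and that dividing cells need. Ornithine decarboxylase (Odc1) makes putrescine from ornithine. S-adenosylmethionine decarboxylase (Amd1) supplies the aminopropyl groups that spermidine synthase (Srm) adds to putrescine and spermine synthase (Sms) adds to spermidine. Spermidine/spermine acetyltransferase (Sat1) starts the back-conversion and export of the products. When polyamines are plentiful, antizymes (Oaz1 and Oaz2) are made, bind the Odc1 protein and deliver it to the proteasome without ubiquitin. Antizyme inhibitor (Azin1) resembles the Odc1 protein, has no decarboxylase activity and binds antizyme in its place. These controls act largely on proteins and on translation, whereas the values below are RNA levels and RNA turnover.

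Sequence elements of the transcripts are shown first because the antizyme genes are identified by a shared one and because the members differ widely in another. Antizyme synthesis needs ribosomes to shift forward by a base at a stop codon at the end of the first reading frame. The annotated mouse transcripts of both antizyme genes hold this site, here 5′ to 3′ with the last sense codon and the stop codon of the first frame in capitals.
Oaz1: cggtggtgcTCCTGAtgtccctcacccacc
Oaz2: ctgtggtgcTCCTGAtgcccctcacccact
The second element is ATTTA, the core of AU-rich elements, which are known from the 3′ untranslated regions (UTRs) of many short-lived messenger RNAs. It was searched on the sense strand only, with overlapping matches counted, and the longer form TATTTAT always contains it. The Azin1 3′ UTR held 11 copies of ATTTA in 2934 bases, that of Amd1 7 in 1871 bases, and that of Sms 7 in 2282 bases. The Sat1 3′ UTR held 2 in 365 bases, and Odc1 (333 bases), Oaz2 (1075 bases) and Srm (312 bases) held 1 each. Oaz1, with 286 bases, held 0. The same search covered 8955 genes with an annotated coding transcript and a mean count of at least 100, whether or not they had a 3′ UTR. Of these, 69.3% held ATTTA in the 3′ UTR, with a median of 2 copies and a median UTR length of 1088 bases. TATTTAT was found in 30.1% of these genes and in Amd1, Sms and Srm. The first TATTTAT of each is shown in capitals with its flanks, together with that of Amd2, a close copy of Amd1.
Amd1: taaactcccTATTTATtgcccttct
Amd2: taaactcccTATTTATtgccctcct
Sms: gtgattgaaTATTTATaaaagagct
Srm: atacatgtgTATTTATaacaagctc
A match is a description of the letters and not a measured site. The Amd1 and Amd2 transcripts were identical at 3190 of 3204 aligned positions (99.6%), with an unbroken identical run of 930 bases. The sources used here do not say how the authors' counting divided reads between these copies, so the separate values of both are uncertain.

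The genes lie apart in the genome (GENCODE M21, GRCm38, all protein-coding). Odc1 (ENSMUSG00000011179) is at chromosome 12, 17544794 to 17551505, on the plus strand, and a snoRNA gene lies inside it. Oaz1 (ENSMUSG00000035242) is at chromosome 10, 80826656 to 80829290, plus strand, and overlaps the microRNA gene Mir1982. Oaz2 (ENSMUSG00000040652) is at chromosome 9, 65668001 to 65690300, plus strand. Azin1 (ENSMUSG00000037458) is at chromosome 15, 38487427 to 38519266, minus strand, and overlaps an antisense gene whose reads could not be told apart from its own if counting ignored strand. Amd1 (ENSMUSG00000075232) is at chromosome 10, 40287458 to 40302186, minus strand. Srm (ENSMUSG00000006442) is at chromosome 4, 148591503 to 148594993, plus strand. Sat1 (ENSMUSG00000025283) and Sms (ENSMUSG00000071708) are both on the minus strand of chromosome X, at 155213132 to 155216449 and 157443855 to 157492287.

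Each library had between 9917026 and 13739380 counted reads, and the members' mean counts over the 12 libraries ran from 482 (Oaz2) to 5040 (Odc1). Levels are given below as CPM, the read count scaled to the TMM-adjusted size of its library. The fibroblast markers Col1a1, Col1a2, Fn1, Vim and Thy1 were between 229 and 8322 CPM in every library and Pdgfrb was between 101 and 118 CPM. The leukocyte, epithelial and endothelial markers Ptprc, Krt8, Cdh1 and Pecam1 reached at most 0.388 CPM, and Cdh5 0.661 to 1.55 CPM. The no4sU libraries lay far apart for several members. At 120 min, the pathway counts and the changes of Azin1, Oaz1, Amd1 and Srm against them are given with and without each. The labels do not say that replicates were separate cultures, so p-values measure only the spread between these libraries.

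The NTR differed among the 8 members, though only 19 of the 28 pairs tested below differed after adjustment. At 120 min Amd1 had the highest NTR of the 8, with 58.13% in replicate A and 58.27% in B, and Oaz1 the lowest mean, with 11.26% and 14.14%, although in B Oaz2 was at 14.12%. Between them in descending order of the mean were Azin1, Sat1, Srm, Odc1, Sms and Oaz2. Over the 9065 genes whose mean count reached 100, the median was 35.4%, so Amd1, Azin1 and Sat1 were above it and the other 5 below it. Among these genes the members' percentiles at 120 min ran from 8.68 for Oaz1 to 73.4 for Amd1.

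Among the synthesis enzymes, the Amd1 NTR in A and B was 2.13% and 1.39% after 15 min, 7.41% and 10.69% after 30 min, 22.81% and 28.23% after 60 min, 45.48% and 38.28% after 90 min and 58.13% and 58.27% after 120 min. Both replicates were above the all-gene median at every duration. For Odc1 the NTR in the same order of durations was 0.64% and 0.14%, 3.74% and 3.11%, 8.01% and 9.25%, 16.54% and 14.20%, and 22.51% and 20.31%. Odc1 protein is among the shortest-lived in mammalian cells, but the Odc1 RNA was in the lower part of the distribution (percentile 26.8 of the 9065 genes at 120 min). Srm went from 1.26% and 0.31% through 4.70% and 3.85%, 11.34% and 10.40%, and 16.86% and 15.48% to 30.04% and 30.18%. Sms went from 0.68% and 0.00% through 3.69% and 3.02%, 9.48% and 10.54%, and 12.83% and 14.84% to 19.34% and 17.00%. Amd1 had a larger new share than both synthases that use its product, in 10 of 10 libraries for each.

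Among the regulators of the Odc1 protein, Azin1 had an NTR of 0.92% and 0.83% after 15 min, 8.28% and 8.90% after 30 min, 18.25% and 20.56% after 60 min, 28.65% and 29.83% after 90 min and 44.32% and 42.04% after 120 min. Oaz1 had 1.55% and 0.49%, 4.05% and 4.96%, 7.45% and 6.76%, 9.14% and 9.82%, and 11.26% and 14.14% at the same durations. From 30 min on, the ranges of the antizyme inhibitor and the antizyme did not overlap at any duration, whereas at 15 min they did. The second antizyme, Oaz2, had 3.73% and 0.83%, 2.64% and 4.09%, 5.25% and 8.42%, 11.04% and 13.01%, and 14.96% and 14.12%. The catabolic enzyme gene Sat1 had 3.20% and 1.86%, 12.30% and 8.92%, 22.46% and 23.60%, 28.42% and 31.90%, and 38.22% and 36.13%. The Sat1 mean was above the Azin1 mean up to 90 min and below it at 120 min. The median width of the authors' 90% interval was 1.85 percentage points for Odc1, the member with the highest mean count, and 5.76 for Oaz2, the member with the lowest.

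**Figure D1:**
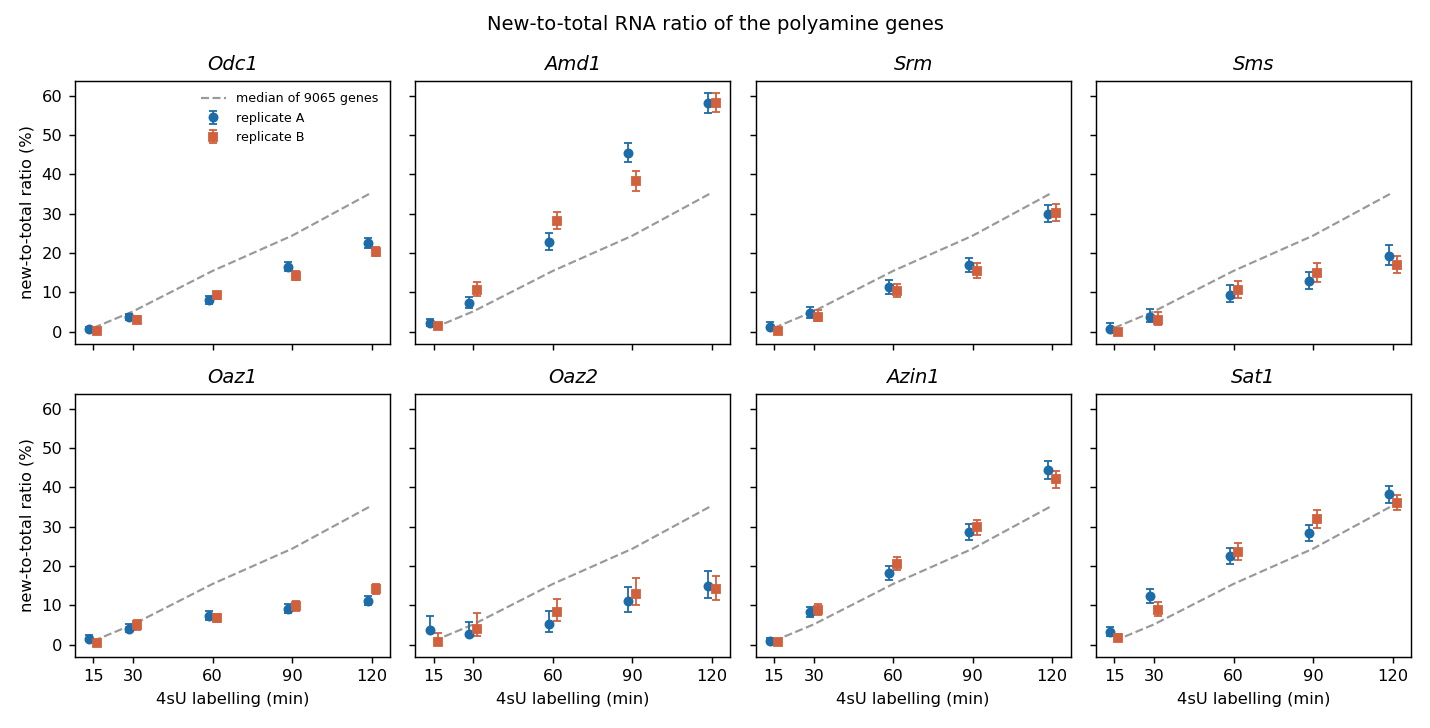
NTR in percent (y axis) against labelling time in minutes (x axis) for each of the 8 genes, 1 point per library (replicates A and B), with vertical bars for the authors' 90% interval and a dashed line for the median of 9065 genes. Amd1 ends highest at 58.13% and 58.27%, and the antizymes lowest, Oaz1 at 11.26% and 14.14% and Oaz2 at 14.96% and 14.12%.

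The 28 pairs of members were compared within the 10 labelled libraries by a two-sided exact permutation test that flips the sign of each difference. After Benjamini-Hochberg adjustment over the 28 pairs, 19 pairs were below 0.05, and 20 before adjustment. Pairs of other genes were not tested, so whether 19 of 28 is particular to this pathway is not known. The smallest p this test can give is 0.00195. Azin1 exceeded its structural relative Odc1 in 10 of 10 libraries, by a mean of 10.4 percentage points (SD of the difference 7.76, adjusted exact permutation p = 0.00497). Against its binding partner Oaz1, Azin1 was higher by 13.3 points in 9 of 10 libraries (SD 11.7, adjusted exact permutation p = 0.00965). Amd1 exceeded Azin1 by 7.02 points in 9 of 10 libraries (SD 6.67, adjusted exact permutation p = 0.00965). Srm exceeded Sms by 3.30 points in 9 of 10 (SD 4.73, adjusted exact permutation p = 0.00781) and Odc1 by 2.60 points in 10 of 10 (SD 3.38, adjusted exact permutation p = 0.00497). Because the libraries differ in labelling time, these SDs include the growth of a difference with time.

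The other 9 pairs did not pass. Oaz1 and Oaz2 differed by 0.847 points on average (SD 1.99, Oaz2 higher in 6 of 10, adjusted exact permutation p = 0.231). Azin1 and Sat1 differed by 0.443 points (SD 3.71, adjusted exact permutation p = 0.693), and Odc1 and Sms by 0.703 points (SD 1.95, adjusted exact permutation p = 0.271). Amd1 exceeded Sat1 by 6.58 points on average (SD 9.63), but only in 7 of 10 libraries (adjusted exact permutation p = 0.0795). Sat1 was the higher of that pair in both 15 min libraries and in 30 min replicate A. The pairs Odc1 and Oaz1, Odc1 and Oaz2, Oaz1 and Sms, Oaz2 and Srm, and Oaz2 and Sms also did not pass, with adjusted exact permutation p-values from 0.0547 to 0.125.

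The NTR was also expressed as an apparent half-life, the time at which the old part would fall to 0.5 of its start if the observed loss were exponential, which assumes a constant RNA level and immediate labelling. At 120 min it was 95.4 min ± 0.259 (SD, n = 2, as for all values here) for Amd1, 147 ± 7.39 for Azin1, 179 ± 9.06 for Sat1 and 232 ± 0.918 for Srm. It was 346 ± 28.4 min for Odc1, 417 ± 42.0 for Sms, 530 ± 23.4 for Oaz2 and 621 ± 107 for Oaz1. The all-gene median was 198 min. With a constant level and immediate labelling the value would not depend on the duration, but for several members it was shorter after longer labelling. The Amd1 mean was 227 min from the 30 min libraries, 143 from those of 60 min and 116 from those of 90 min, and both 120 min libraries lay below every earlier one. Azin1 had means of 232, 194 and 180 min at the same 3 durations, Srm 481, 362 and 354, and Odc1 602, 463 and 376, each above its 120 min mean. Oaz1 did not share this order, with 456, 566, 627 and 621 min from 30 to 120 min. Sat1 stayed between 159 and 191 min from 30 to 120 min, while the all-gene median went from 368 to 198 min. These courses were not tested.

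**Figure D2:**
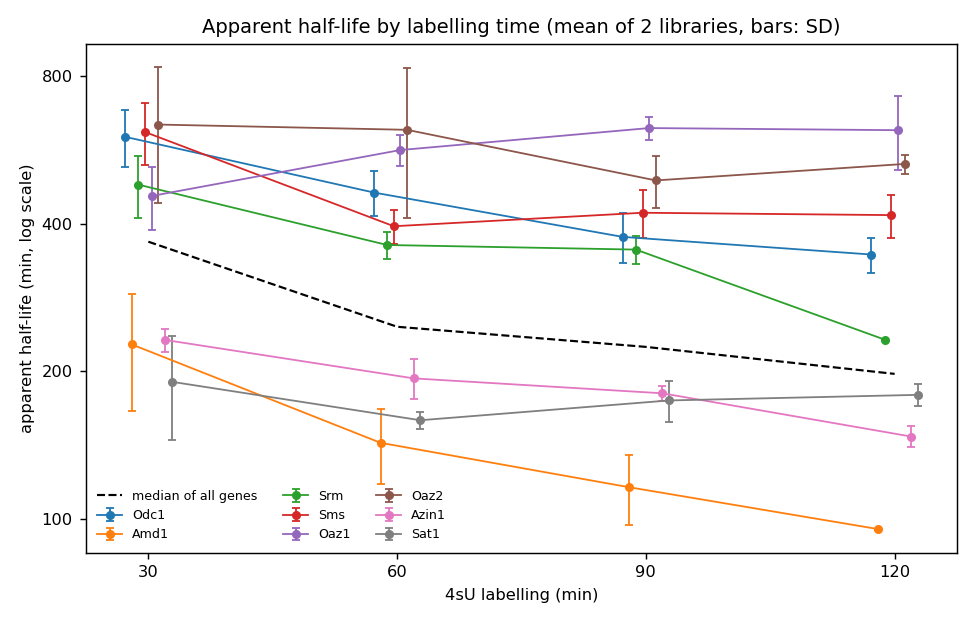
Apparent half-life in minutes (y axis, log scale) against labelling time in minutes (x axis) from 30 to 120 min, with 1 line per gene through the means of 2 libraries, bars for the SD and a dashed line for the median of all genes. Amd1 goes from 227 min on average at 30 min to 95.4 min at 120 min, while Oaz1 goes from 456 to 621 min.

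For each member, the 3 genes whose NTR lay closest over the 10 labelled libraries were taken from the 9065 genes, by the root mean square difference in percentage points. For Odc1 they were Hspd1 (0.524 points), Hnrnpd (0.545) and Rab1a (0.579). For Oaz1 they were Eif5a (0.686), Rps19 (0.689) and Rcn2 (0.721). Eif5a encodes the translation factor that carries hypusine, a residue made from spermidine, and was on the list of further pathway genes. For Oaz2 the closest were Tspan31 (0.991), Fh1 (1.10) and Slc35b1 (1.19), and for Azin1 Gm10184 (1.16), Cmtm4 (1.26) and Dnajc5 (1.27). Those of Amd1 were Tfip11 (1.51), Rab22a (1.59) and Amd2 (1.61), its near-identical copy, whose reads may not be separable from those of Amd1. For Sat1 they were Foxred1 (1.48), Hnrnpl (2.01) and Rexo4 (2.10), for Srm Tulp4 (1.09), Gm50388 (1.09) and Phf14 (1.18), and for Sms Cse1l (0.795), Rps6ka3 (0.847) and Cip2a (0.849).

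Levels were compared between genes only per length, as CPM per kilobase over the 12 libraries. With the gene lengths of the deposited table, Odc1 was highest at 200 ± 7.64 (SD, n = 12), and its lowest library was above the highest of every other member. Sat1 (147 ± 8.16) and Srm (140 ± 6.30) followed with overlapping ranges, and Srm and Oaz1 (119 ± 8.87) also overlapped. Amd1 was at 57.2 ± 3.78 and Azin1 at 46.6 ± 5.01, again with overlapping ranges, and Sms (24.1 ± 0.711) and Oaz2 (22.9 ± 1.23) were lowest and overlapped too. The order at the top depended on the length used. The table gives Oaz1 2526 bases, whereas the longest coding Oaz1 transcript has 1071, and with coding transcripts Oaz1 was highest at 280 ± 20.9, above Odc1 at 200 and Sat1 at 171 ± 9.49. Under both lengths Oaz1 was above Oaz2 in every library.

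**Figure D3:**
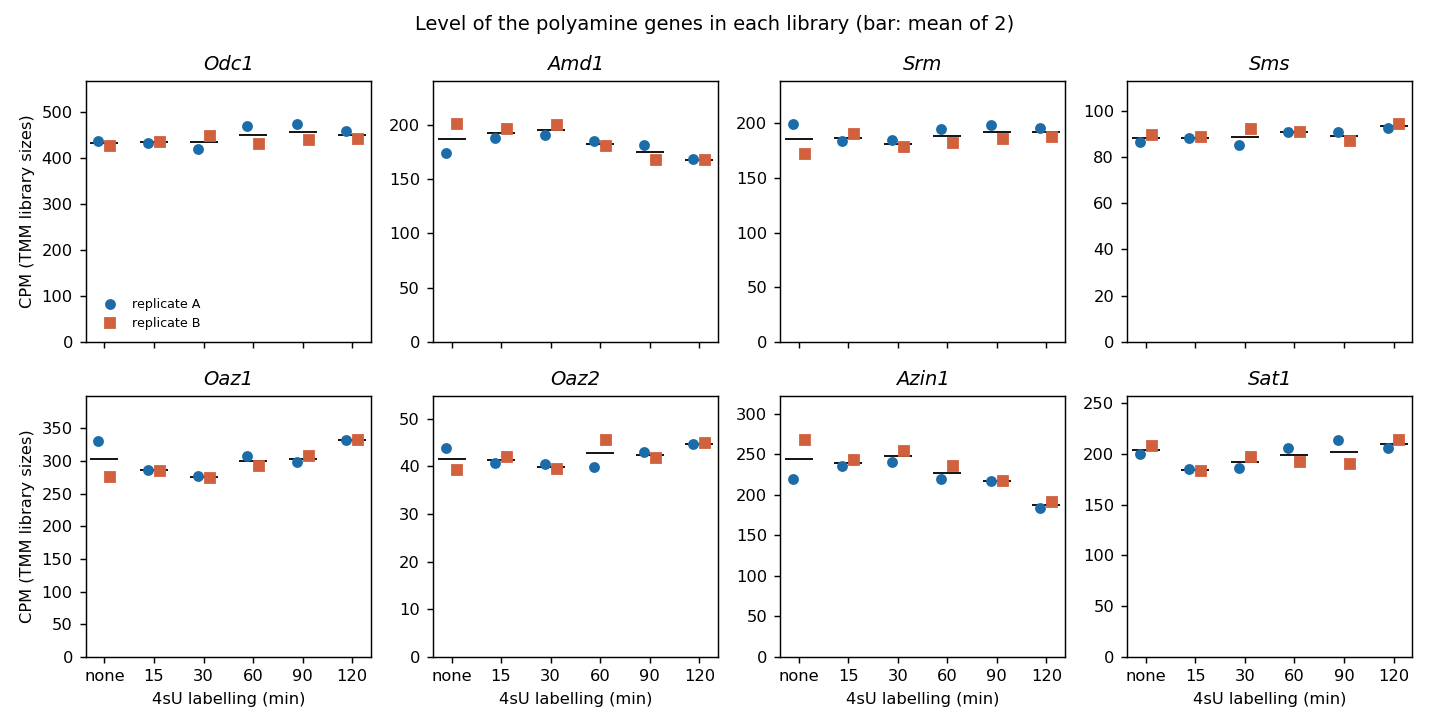
CPM (y axis) in each of the 12 libraries for the 8 genes, with the groups from no4sU to 120 min along the x axis replicates A and B as separate symbols and the mean of both as a short line. Azin1 is lowest in the 120 min libraries at 183.2 and 191.7, and its no4sU libraries at 219.5 and 268.3 lie far apart.

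The CPM of 4 of the 8 members had a trend over labelling time in the test below, beside 37.8% of all genes tested. Azin1 and Amd1 went downward and Oaz1 and Sat1 upward. The Azin1 CPM was 236.3 and 243.2 after 15 min, 240.7 and 254.2 after 30 min, 219.0 and 235.9 after 60 min, 216.5 and 217.5 after 90 min and 183.2 and 191.7 after 120 min. Both 120 min libraries were below all other libraries. For Amd1 the values were 188.3 and 195.9, 190.4 and 199.8, 184.8 and 180.8, 181.5 and 167.6, and 168.2 and 167.7 CPM, and the 15 and 30 min libraries did not overlap with any later one. Oaz1 had 286.9 and 284.4, 277.3 and 273.2, 308.3 and 292.5, 298.8 and 308.1, and 332.8 and 331.4 CPM, with both 120 min libraries above all other labelled ones. Sat1 had 185.4 and 183.6, 186.6 and 197.1, 206.1 and 192.5, 214.2 and 190.3, and 206.2 and 213.9 CPM. Its 15 min libraries were the lowest of the 12, and its no4sU libraries had 199.6 and 208.3 CPM. The rise of Sat1 was therefore from a low level at 15 min to values close to those of the unlabelled libraries.

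A trend per hour of labelling was fitted over the 10 labelled libraries with edgeR's quasi-likelihood test and Benjamini-Hochberg adjustment over 11526 genes. It called 4 of 8 members at an adjusted p below 0.05, beside 37.8% of all genes tested. Of these 2 rose, beside 18.3% of all genes, and 2 fell, beside 19.5%. Azin1 fell by 0.21 on the log2 scale per hour (SE 0.0240, edgeR adjusted p = 1.08e-08) and Amd1 fell by 0.12 (SE 0.0223, edgeR adjusted p = 2.01e-05). Oaz1 rose by 0.13 (SE 0.0210, edgeR adjusted p = 2.93e-06) and Sat1 rose by 0.10 (SE 0.0234, edgeR adjusted p = 0.000907). The other 4 had trends of 0.04 to 0.07 per hour that did not pass, with edgeR adjusted p-values from 0.108 for Oaz2 to 0.282 for Sms. The median trend was 0.0374 over the members and 0.00365 over all genes. Over all genes 48.4% of the calls were rises, and 27.9% when libraries were scaled by their totals alone. The same 4 members passed with that scaling, beside 4203 of 11526 genes. Adding the no4sU libraries at time 0 lowered the Sat1 trend to 0.05 (edgeR adjusted p = 0.149) and the Oaz1 trend to 0.09 (edgeR adjusted p = 0.0316). Of the 8, Azin1, Amd1 and Oaz1 then passed, beside 3275 of 11564 genes. In bulk RNA, less RNA per cell and fewer cells expressing a gene cannot be told apart, and CPM shows shares of the library rather than amounts.

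**Figure D4:**
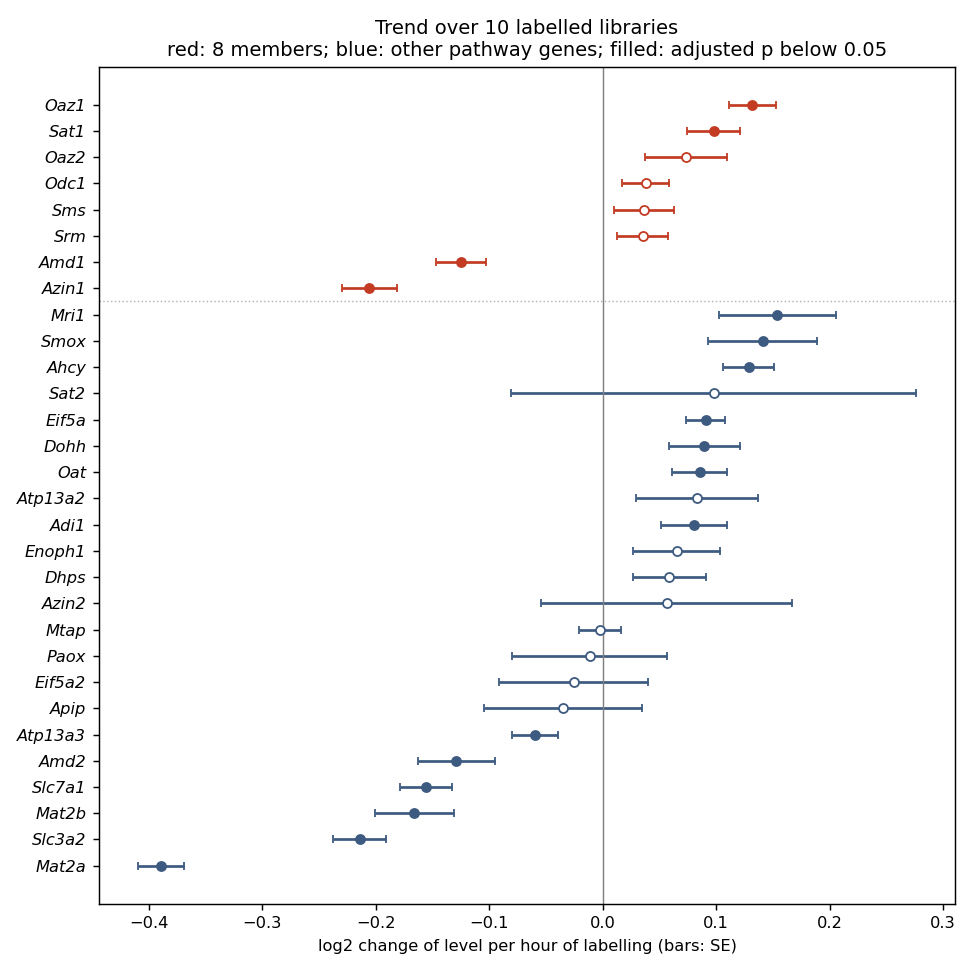
Log2 change per hour of labelling (x axis) with bars of 1 SE for the 8 genes and for the tested genes of the pathway list (y axis), from the edgeR fit over the 10 labelled libraries. Filled points have an adjusted p below 0.05, and of the 8 genes Azin1 and Amd1 lie below 0, Oaz1 and Sat1 above 0, and Mat2a is lowest at -0.39.

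Comparing 120 min directly with 15 min, in a fit of all 12 libraries and 11564 genes, edgeR called the same 4 members, beside 19.3% of all genes. These libraries also enter the trend, so this is not a separate line of evidence. Of the 4, 2 were higher, beside 7.93% of all genes, and 2 lower, beside 11.3%. Azin1 was lower by a log2 change of -0.35 (SE 0.0724, edgeR adjusted p = 0.00244) and Amd1 by -0.19 (SE 0.0648, edgeR adjusted p = 0.0414). Oaz1 was higher by 0.22 (SE 0.0657, edgeR adjusted p = 0.0259) and Sat1 by 0.19 (SE 0.0618, edgeR adjusted p = 0.0387). The changes of Odc1, Oaz2, Srm and Sms were between 0.04 and 0.12 and did not pass (edgeR adjusted p from 0.331 to 0.735). Leaving out any 1 of the 4 libraries compared left only Azin1 past the threshold, while the log2 changes stayed at 0.21 to 0.22 for Oaz1, -0.22 to -0.17 for Amd1 and 0.16 to 0.22 for Sat1. DESeq2 called Azin1 and Oaz1, beside 1439 of 9151 genes. Scaling by library totals called Azin1 and Amd1, so 0 members higher and 2 lower, beside 426 higher and 1867 lower of 11564 genes. Oaz1 was then at 0.16 (edgeR adjusted p = 0.0946) and Sat1 at 0.13 (edgeR adjusted p = 0.143). With that scaling the share of rises among all genes called was 18.6% in place of 41.2%.

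Against the unlabelled cells, which all 5 durations share as control, 1 member passed. At 15 and 30 min edgeR called 0 of 8 members, beside 0% of all genes at both durations, and at 60 min 0 of 8 beside 0.0173%. At 90 min it called 0 of 8 beside 1.39% of all genes. The numbers of members with an unadjusted edgeR p below 0.05 were 1, 0, 0 and 1 at these 4 durations, beside 5.34%, 5.79%, 7.74% and 16.2% of all genes, and DESeq2 also called 0 members at each. At 120 min only Azin1 was called, at a log2 change of -0.38 (SE 0.0721, edgeR adjusted p = 0.00192), so 1 of 8 members beside 14.2% of all genes. Amd1 was at -0.16 (edgeR adjusted p = 0.0994) and Oaz1 at 0.13 (edgeR adjusted p = 0.170). The changes of Sat1, Srm, Odc1, Sms and Oaz2 were between 0.04 and 0.11 and did not pass. Of these, Sat1 was at 0.04 (edgeR adjusted p = 0.681) and Srm at 0.05 (edgeR adjusted p = 0.631). These comparisons rest on 2 no4sU libraries that lay far apart for Oaz1, Azin1 and Amd1. Oaz1 had 331.3 CPM in A and 274.8 in B, Azin1 219.5 and 268.3, and Amd1 174.1 and 200.4. Without no4sU replicate A, 4 members were called at 120 min, beside 30.2% of all genes in that fit: Azin1 (-0.52), Oaz1 (0.27, edgeR adjusted p = 2.34e-05), Amd1 (-0.26, edgeR adjusted p = 0.000277) and Srm (0.16, edgeR adjusted p = 0.0239). Without replicate B, Azin1 alone of the 8 was called, at -0.23 (edgeR adjusted p = 0.00289), beside 16.2% of all genes. Oaz1 was then at 0.00276 (edgeR adjusted p = 0.981), Amd1 at -0.0530 (edgeR adjusted p = 0.594) and Srm at -0.0545 (edgeR adjusted p = 0.576), so the size of these changes depended on which unlabelled library was used. In a fit of the 120 min and no4sU groups alone Azin1 did not pass (edgeR adjusted p = 0.0717).

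Ratios of counts within a library need no scaling between libraries. Azin1 counts divided by Oaz1 counts gave 0.839 ± 0.0222 (SD, n = 2) after 15 min, 0.899 ± 0.0442 after 30 min, 0.758 ± 0.0679 after 60 min, 0.715 ± 0.0133 after 90 min and 0.565 ± 0.0198 after 120 min. The 120 min libraries were below every other labelled library. Without 4sU the ratio was 0.662 in A and 0.977 in B, so the unlabelled libraries spanned from below the 90 min mean to above the 30 min mean. Amd1 divided by Odc1 went from 0.443 ± 0.0106 at 15 min to 0.373 ± 0.00883 at 120 min. Amd1 divided by Amd2 stayed between 3.02 and 3.08 in the group means. Because reads of these near-identical copies may not be separable, their counts were also summed, which was chosen after seeing the data. The sum had a trend of -0.13 per hour (edgeR adjusted p = 1.35e-05) and a change of -0.19 between 15 and 120 min (edgeR adjusted p = 0.0374).

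Each count was divided into a new part, NTR times CPM, and an old part, the remainder. At 120 min the new part was 97.7 CPM ± 0.0347 (SD, n = 2) for Amd1 and 96.4 ± 9.48 for Odc1. The old part was 70.2 ± 0.311 and 354 ± 2.10 CPM, so most of the Amd1 signal was new and most of the Odc1 signal old. Per kilobase of the table's length, the new part at 120 min was 57.7 for Sat1, 43.7 for Odc1, 43.2 for Srm, 30.5 for Amd1, 16.7 for Oaz1 and 16.6 for Azin1. Those of Sms and Oaz2 were 4.56 and 3.53. The Sat1 value was above that of Odc1, whose total level per kilobase was higher. With coding transcript lengths Oaz1 had 39.4, above Amd1 at 30.5, and Sat1 67.2.

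The decline of the old part over the 10 labelled libraries does not assume a constant total level, but it uses the same NTR values as the apparent half-life and is no independent measure. Its slope was -0.82 log2 units per hour for Amd1 (SE 0.0397) and -0.65 for Azin1 (SE 0.0459), equal to half-lives of 72.9 and 92.8 min. These were shorter than their apparent half-lives from the NTR at 120 min, 95.4 and 147 min. Sat1 had a slope of -0.26 (SE 0.0403), Srm -0.23 (SE 0.0341), Odc1 -0.16 (SE 0.0274) and Sms -0.13 (SE 0.0237), with half-lives of 231, 257, 385 and 475 min. The antizyme slopes were each less than 2 SE from 0, at 0.04 (SE 0.0257) for Oaz1 and -0.04 (SE 0.0293) for Oaz2. The median over 9065 genes was -0.35, and of the 8 members Amd1 and Azin1 had steeper slopes than that. The Oaz1 slope moved to 0.000735 with scaling by library totals and to 0.0803 without the 15 min libraries.

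**Figure D5:**
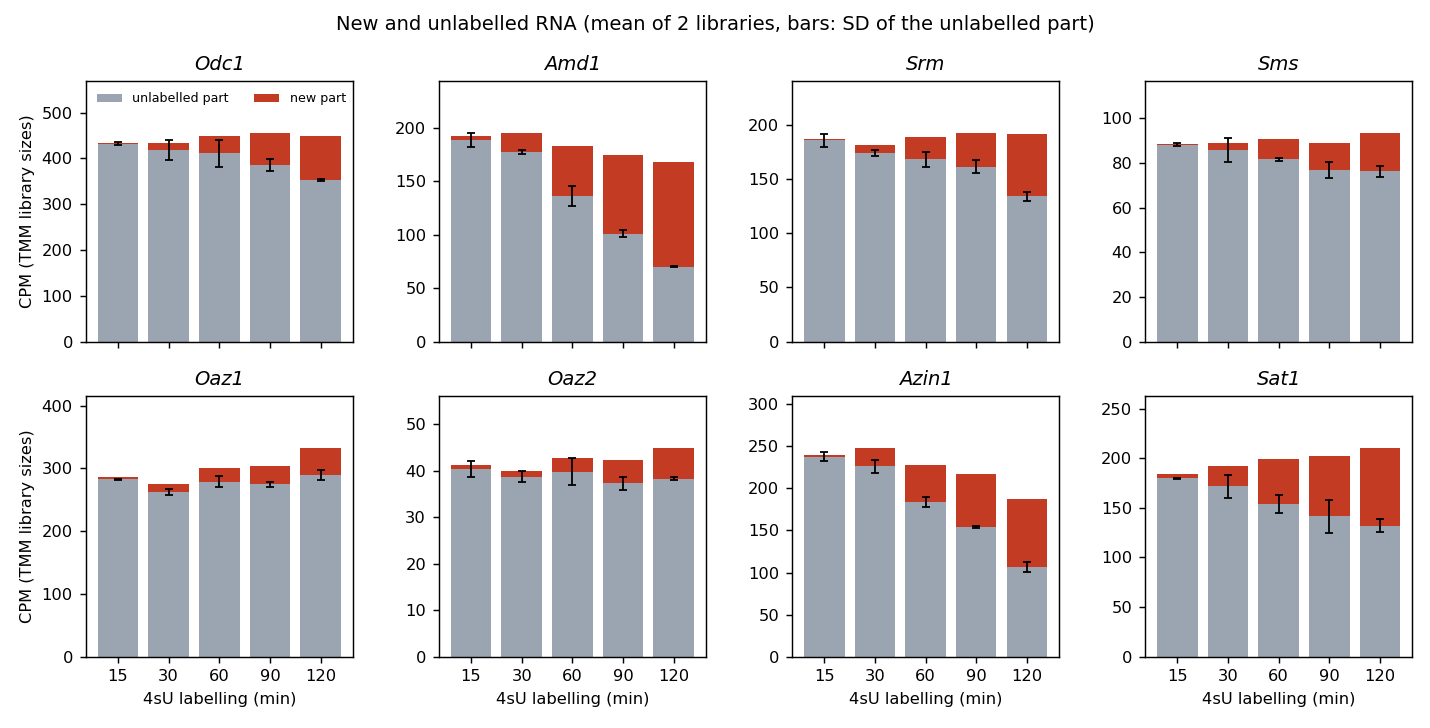
Mean CPM (y axis, starting at 0) of the new and old parts of each of the 8 genes at each labelling duration in minutes (x axis), as stacked means of 2 libraries with bars for the SD of the old part, named unlabelled in the legend. The old part of Amd1 goes down to 70.2 CPM at 120 min, whereas that of Oaz1 is 290 CPM.

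Further genes of polyamine and S-adenosylmethionine metabolism were taken from a list of 26, of which 25 were in the table and 22 were tested. In the trend over labelling time, edgeR called 7 of the 22 higher and 6 lower, beside 18.3% and 19.5% of all genes. Between 15 and 120 min it called 2 higher and 4 lower, beside 7.93% and 11.3%. The median change over the 22 was 0.06 and that over all genes 0.00567. The largest fall among them was that of Mat2a, which encodes the catalytic subunit of the enzyme making S-adenosylmethionine, the substrate of Amd1. It went from 592.3 and 593.3 CPM at 15 min to 359.6 and 368.0 at 120 min, without overlap. The log2 change was -0.70 (SE 0.0503, edgeR adjusted p = 5.26e-08). At 120 min 90.1% ± 1.16 (SD, n = 2) of Mat2a RNA was new. Mat2b, the regulatory subunit of the same enzyme, changed by -0.26 (SE 0.0814, edgeR adjusted p = 0.0324) with an NTR of 67.1% ± 1.12.

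The amino acid transporter genes Slc3a2 and Slc7a1, the latter the carrier of arginine and ornithine, changed by -0.41 (SE 0.0643, edgeR adjusted p = 0.000331) and -0.30 (SE 0.0604, edgeR adjusted p = 0.00214). Their NTRs at 120 min were 83.8% ± 1.93 and 61.0% ± 1.65. Ahcy, which breaks down S-adenosylhomocysteine, rose by 0.19 (SE 0.0592, edgeR adjusted p = 0.0301) at an NTR of 11.4% ± 0.863. The second rise was in Oat, the ornithine aminotransferase gene, at 0.18 (edgeR adjusted p = 0.0325), named because the count was small and not by the rule. In the trend, Eif5a rose by 0.09 per hour (SE 0.0171, edgeR adjusted p = 4.41e-05) and Smox, the spermine oxidase gene, by 0.14 (SE 0.0480, edgeR adjusted p = 0.0177). Amd2, also among the genes called lower in the trend, fell by 0.13 (SE 0.0337, edgeR adjusted p = 0.00223). Its reads may not be separable from those of Amd1. Azin2, a second antizyme inhibitor, had a trend of 0.06 that did not pass (edgeR adjusted p = 0.722). Oaz3, the testis antizyme, had a mean count of 0.333 and was not tested. Against no4sU, the list had 2 genes higher and 4 lower at 120 min, beside 14.2% of all genes in either direction. Without no4sU replicate A these were 7 and 5, beside 30.2%, and without B 2 and 3, beside 16.2%. At 90 min 1 gene, Mat2a, was lower (log2 change -0.44, edgeR adjusted p = 0.000126), beside 1.39% of all genes called in either direction. Its change was -0.49 without replicate A and -0.39 without B. More genes of the list passed at 90 min without A and without B, but more of all genes did too. Each of those fits has 1 no4sU library, as do those at 120 min, and their counts at 90 min are not given.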

How the data were processed

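RNA of 12 NIH-3T3 libraries was sequenced after iodoacetamide treatment. The authors deposited a table of 17419 genes with estimated counts per library, unscaled, per the file headers, and all were rounded because 20.4% were not whole at a tolerance of 1e-06. The NTR was deposited by the authors as a fraction (posterior maximum, mean, and 0.05 and 0.95 quantiles, which bound 90% of the posterior). The authors' alpha and beta, each a score, were not used. Gene lengths come from the same table. The submitters' processing notes name cutadapt, Bowtie2 2.3.0 and STAR 2.7.10b. The sources used here do not give the build, annotation or strand of counting. Titles gave group and replicate, and 0 columns belonged to other samples.

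Genes kept by filterByExpr were scaled by TMM and fitted with edgeR 4.0.16 in R 4.3.3, with groups over all 12 libraries (11564 genes) or time over the 10 labelled ones (11526 genes), without covariates. Calls were made at 0.05 after Benjamini-Hochberg adjustment over the tested genes. DESeq2 1.42.0 was the other tool. Genes in the NTR background had mean counts of 100 or more. The apparent half-life was ln 2 × time / -ln(1 - NTR), for NTRs from 0.01 to 0.99. Only the edgeR count fits were tested on simulated counts, with planted changes larger than those of the members in the reported fits. The pair test, half-lives and old-part slopes were not. Named genes were all members, the 5 pathway genes with the smallest adjusted p between 15 and 120 min, Mat2a, Smox, Azin2, Amd2, Oaz3 and Eif5a, and the 3 closest genes in NTR per member. Members and lists were chosen with earlier results of these data known. Transcripts and positions come from GENCODE M21, in which 17376 of the 17419 IDs were found. Amd1 and Amd2 were aligned with mafft 7.526. Python 3.11.15 with scipy 1.17.1 was used.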

Additional observations from a re-analysis of the deposited data

How the results depend on the processing

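The trend called 4 members in the reported fit, beside 4362 of 11526 genes. The count of members stayed within 1.5 times under all 15 alternatives. At 120 against 15 min, where 4 members passed beside 2228 of 11564 genes, 2 passed with library totals as scaling (2293 of 11564 genes). With DESeq2 2 members passed (1439 of 9151 genes). The dependence of these calls on single libraries is given above. At 120 min against no4sU, where 1 passed beside 1643 of 11564 genes, 2 passed with library totals (1887 of 11564 genes). In the fit of the 2 groups alone 0 passed (171 of 11436 genes). Of the fits that left out 1 library, only that without no4sU replicate A changed the count (Srm at 0.16). Leaving out single libraries gave 0 to 1 members at 15 min, 0 to 2 at 30 min, 0 to 1 at 60 min and 0 to 3 at 90 min against no4sU. At these 4 durations every count above 0 came from a fit with 1 no4sU library left. Calls over all genes, given below, were also more numerous in each such fit than in the reported fit. The cause was not tested. With library totals, the changes at 120 min against no4sU became negative for Odc1 (-0.00639), Sat1 (-0.0245) and Srm (-0.0142), and those against 15 min for Odc1 (-0.00353) and Srm (-0.0205). Without no4sU replicate B, Srm was at -0.0545 against no4sU. None of these 6 passed. Of the 28 pairs, 19 differed, and 0 did so in replicate A or B alone, since 5 libraries are too few for this test to pass. With the replicate block, 4 members passed in the trend, 4 at 120 against 15 min and 1 at 120 min against no4sU, so it changed no call. Same-letter correlations were between -0.0364 and 0.0744, and the letters were not taken as pairing. Calls over all genes at 120 against 15 min numbered 2228, and 3818 with the 2 groups alone, 3700 with the labelled libraries, 1439 with DESeq2 and 657 to 1037 without 1 library. At 120 min against no4sU they numbered 1643, and 171 with the 2 groups alone, 1060 with DESeq2 and 452 to 3533 without 1 library. At 90 min they numbered 161, and 284 with library totals, 438 without the filter, 2 with the 2 groups alone and 8 to 1442 without 1 library, and the share of rises was 32.3%, or 7.75% with library totals. At 120 min against no4sU that share was 38.2%, or 10.8%. At 60 min they numbered 2, and 15 with library totals, 95 without the filter, 4 with the block, 0 with the 2 groups alone, 8 with DESeq2 and up to 1213 without 1 library. At 15 and 30 min they numbered 0, and 9 each without the filter and up to 1336 and 1363 without 1 library. Depth limits Oaz2 most, which had the widest NTR intervals of the 8.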
